A study of Mus musculus with 3 samples.

Results

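Among mouse CD4+ T cells stimulated through the T cell receptor (TCR), a small group of cells carried most of the transcripts of the chemokines *Ccl3* and *Ccl4*. These cells were chosen by their raw UMI counts (a unique molecular identifier, or UMI, tags 1 RNA molecule). A cell was a member if its *Ccl3* and *Ccl4* UMIs summed to 5 or more, and members are called Ccl3/Ccl4 cells here. Of the 14846 stimulated cells with at least 4056 UMIs and under 15% mitochondrial UMIs, 1204 were Ccl3/Ccl4 cells, with 593 of 7602 in the stimulated WT library and 611 of 7244 in the stimulated IFT20-KO library. They were compared, within each library, with the 5885 and 5178 cells of the same filter that held no UMI of either gene, called chemokine-negative cells. Ccl3/Ccl4 cells of both libraries had higher levels of *Il2*, *Tnf*, *Lta*, *Cd40lg* and the 3 *Nr4a* genes than chemokine-negative cells, and lower levels of *Klf2*, *Ccr7* and many interferon-stimulated genes.

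The cells were spleen CD4+ T cells of C57BL/6 mice, enriched for naïve cells with magnetic beads and sorted as 7AAD-CD3+CD4+ cells. WT cells were of the genotype Ift20 f/f without Cre, and IFT20-KO cells of the genotype Ift20 f/f CD4 cre, in which Cre acts in every cell that passed through a CD4-expressing stage, so that both genotypes carried the loxP-flanked *Ift20* allele. The stimulated libraries held cells after 24 h with antibodies to CD3 and to CD28, each at 1 μg/mL, and another library held unstimulated WT cells kept in buffer (DPBS). With 1 library for each group, cells are not replicates and no test was made, so each comparison is between these libraries or between cells of 1 library, and 95% intervals cover counting error only. The mice were males of 5 to 10 weeks, and the number of mice behind a library is not given in the sources used here. The filter kept 5263 of 8253 barcodes of the unstimulated library, 7602 of 10320 of the stimulated WT library and 7244 of 13932 of the stimulated IFT20-KO library. The median UMI number per kept cell was 5233, 13952 and 11716 in that order.

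*Ift20* (ENSMUSG00000001105, chr11:78536361-78541737, + strand), which encodes an intraflagellar transport protein and is the gene deleted in the knockout, was at 62.7 counts per 1000000 UMIs (CPM) in the unstimulated library, 77.1 CPM in the stimulated WT library and 6.76 CPM in the stimulated IFT20-KO library. The Ccl3/Ccl4 cells had the same difference, at 73.3 CPM (95% exact Poisson interval 68.3 to 78.6) for WT against 6.80 CPM (5.24 to 8.66) for IFT20-KO. The library labelled as knockout was thus low in its target in these cells too, by a log2 ratio of -3.43 (-3.82 to -3.07) in Ccl3/Ccl4 cells and -3.58 in chemokine-negative cells. *Tsg101*, which encodes an ESCRT-I subunit, was at 60.3 CPM in Ccl3/Ccl4 cells of the WT library and 50.9 CPM in those of the IFT20-KO library.

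CCL3 and CCL4, also called macrophage inflammatory protein 1α and 1β, are small secreted chemokines that draw T cells, monocytes and dendritic cells towards the cell that secretes them. In T cells their genes are switched on by TCR signaling, and they are best known as products of CD8+ T cells, NK cells and activated effector cells. The 2 genes lie close together on mouse chromosome 11, *Ccl3* (ENSMUSG00000000982) at chr11:83647844-83649355 on the - strand and *Ccl4* (ENSMUSG00000018930) at chr11:83662584-83664683 on the + strand (mm10, GENCODE M21).

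The 250 bases before the start of *Ccl3*, *Il2* and *Nr4a1* are shown because *Ccl3* is a gene of the rule and the other transcripts were among the highest in the same cells. They come from RefSeq (GRCm38.p6), in the direction of transcription, from chr11:83649379-83649628 (- strand), chr3:37125955-37126204 (- strand) and chr15:101266596-101266845 (+ strand). Capitals mark each match, on either strand, to GGAAA (the NFAT core), TGACG (a CRE half-site), TGTGGT (RUNX) or TGANTCA (AP-1, where N is any base).
Ccl3: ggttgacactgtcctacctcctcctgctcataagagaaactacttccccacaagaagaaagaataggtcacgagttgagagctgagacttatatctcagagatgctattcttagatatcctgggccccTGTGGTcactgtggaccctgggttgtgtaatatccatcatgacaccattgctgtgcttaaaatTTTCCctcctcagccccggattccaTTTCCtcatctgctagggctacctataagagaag
Il2: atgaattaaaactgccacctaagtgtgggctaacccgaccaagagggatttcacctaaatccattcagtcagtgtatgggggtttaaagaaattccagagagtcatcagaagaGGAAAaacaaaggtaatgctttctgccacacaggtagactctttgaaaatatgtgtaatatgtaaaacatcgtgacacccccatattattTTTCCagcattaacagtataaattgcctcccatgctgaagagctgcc
Nr4a1: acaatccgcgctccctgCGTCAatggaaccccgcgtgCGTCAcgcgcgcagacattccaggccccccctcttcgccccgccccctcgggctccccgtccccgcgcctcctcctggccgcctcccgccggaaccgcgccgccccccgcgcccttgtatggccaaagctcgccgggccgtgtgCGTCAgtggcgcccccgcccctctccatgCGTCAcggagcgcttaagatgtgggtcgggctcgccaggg
The *Ccl3* window held 2 GGAAA matches, 59 and 34 bases before the start, and 1 TGTGGT match at 122 bases, while the *Il2* window held GGAAA 137 and 47 bases before the start. The *Nr4a1* window held 4 TGACG matches, and so did that of *Nr4a3*. None of these 4 windows held TGANTCA. Of 32851 such windows in the reference table, 55.6% held GGAAA, 17.8% TGACG, 14.0% TGTGGT and 6.75% TGANTCA, so a GGAAA match was common. A match is a run of letters and not a measured binding site.

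Ccl3/Ccl4 cells made up 7.80% of the stimulated WT library (95% Clopper-Pearson interval 7.21 to 8.43) and 8.43% of the stimulated IFT20-KO library (7.80 to 9.10), shares whose intervals overlapped. Their order depended on the filter and the gene, with 6.35% and 4.73% when no UMI minimum was set and 2.09% and 1.70% for 5 or more UMIs of *Ccl3* alone. The unstimulated library had 0 such cells of 5263, and 3 counts of that total, the limit set for a count of 0, are 0.0570%. Most stimulated cells, 77.4% in the WT library and 71.5% in the IFT20-KO library, held no UMI of either gene, and 14.8% and 20.1% held 1 to 4. At the edge of the rule, 51 cells of the WT library and 66 of the IFT20-KO library had a sum of 4, and 40 and 53 had a sum of 5, so that the distribution had no gap there. At the other end, 3.58% and 3.27% of cells held 20 or more, which was 272 and 237 cells.

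**Figure D1:**
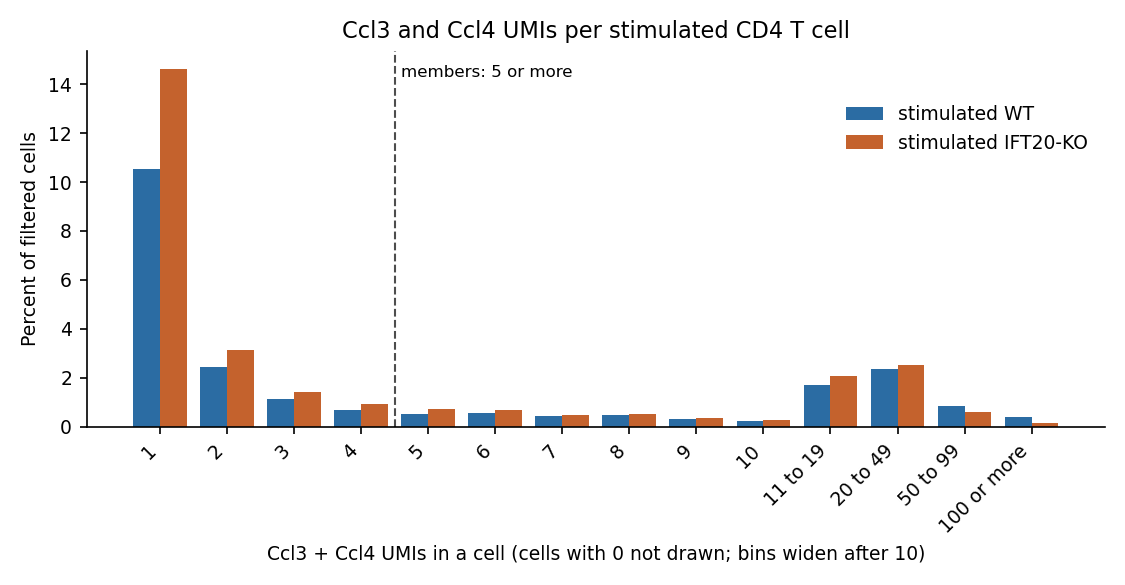
Percent of filtered cells (y axis) with each sum of Ccl3 and Ccl4 UMIs (x axis, cells with 0 left out, bins wider above 10) in the 2 stimulated libraries, with the dashed line at the rule's minimum. Sums of 1 to 4 held 14.8% of cells in stimulated WT and 20.1% in stimulated IFT20-KO, and sums of 20 or more 3.58% and 3.27%, and the steps on either side of the minimum were small.

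The share depended on how many UMIs a cell had. It went from 2.83% in the fifth of WT cells with the fewest UMIs to 15.7% in the fifth with the most, and from 2.90% to 18.0% in the IFT20-KO library. With every cell thinned to 4056 UMIs the expected shares with a sum of 5 or more were 3.63% and 4.0%, and they still ran from 1.55% to 6.28% and from 2.07% to 6.44% over the same groups of cells. Ccl3/Ccl4 cells had a median of 16813 UMIs and 3700 genes in the WT library, where chemokine-negative cells had 13557 UMIs and 3213 genes. The medians were 14794 against 11394.5 UMIs and 3481 against 2984 genes in the IFT20-KO library, and the median mitochondrial share was close to 1% in all 4 groups.

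Free RNA in the droplets can give a cell a chemokine UMI that it did not make, and this was gauged in stimulated cells that kept naïve transcripts, namely at least 5 thinned UMIs of *Il7r*, *Klf2* and *S1pr1* together. At equal depth, 5.38% of these cells in the WT library (15 of 279) and 7.32% in the IFT20-KO library (12 of 164) held any *Ccl3* or *Ccl4* UMI, against 13.3% and 17.1% of the other cells. Before thinning, their median UMI numbers were 9414 and 7902, against 14107 and 11802 in the other cells. None of the 279 and 164 cells reached a sum of 5. A sum of 1 to 4 was therefore not read as production. The stimulated libraries shared 79 filtered barcodes, and 0 of these were Ccl3/Ccl4 cells in both.

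*Ccl4* was the more abundant transcript of the pair, and the 2 were unevenly spread over the cells. Ccl3/Ccl4 cells held 92.3% of all *Ccl3* and *Ccl4* UMIs of the filtered WT cells and 87.0% in the IFT20-KO library. Their median sum was 17 UMIs in the WT library (quartiles 8 and 35) and 15 in the IFT20-KO library (8 and 28), which was 0.101% and 0.102% of a cell's UMIs. The tenth of Ccl3/Ccl4 cells with the highest sums held 46.7% and 35.7% of their UMIs of both genes. Every Ccl3/Ccl4 cell had a *Ccl4* UMI, whereas 263 of the WT library (44.4%) and 234 of the IFT20-KO library (38.3%) had none of *Ccl3*. Among cells with 20 or more, 82.0% and 81.4% held both. There were 4.65 *Ccl4* UMIs for each *Ccl3* UMI in the WT library and 6.38 in the IFT20-KO library, in counts of transcript ends that were not scaled by gene length. More *Ccl3* than *Ccl4* was found in 6 and 9 cells.

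A single WT cell stood far above the others. It held 622 *Ccl3* and 789 *Ccl4* UMIs, or 11.6% of its 12147 UMIs, and the next sum was 588, while the highest IFT20-KO cell had 187. Without the first cell, the WT library had 5.39 *Ccl4* UMIs for each *Ccl3* UMI, and its mean sum changed from 33.0 to 30.7. That cell had 21 UMIs of *Cd3e*, a chain of the TCR complex, 0 of *Cd4*, 0 of *Cd8a*, 29 of *Xcl1*, 16 of *Nkg7*, 9 of *Tnf* and 0 of *Il2*, and it also held all 21 *Ccl9* UMIs of the WT Ccl3/Ccl4 cells. The second cell carried 170 UMIs of *Ifng* and 179 of *Xcl1*, with 19 of *Cd3e*, 2 of *Cd4* and 0 of *Cd8a*.

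The Ccl3/Ccl4 cells carried the transcripts of CD4+ T cells. The 11 CD4 T cell markers, among them the CD3 chains, *Trac*, *Cd4* and *Zbtb7b*, summed to 4547 CPM in Ccl3/Ccl4 cells and 4979 CPM in chemokine-negative cells of the WT library, and to 4627 and 5125 CPM in the IFT20-KO library. *Cd8b1*, a chain of the co-receptor of CD8+ T cells, was at 10.0 and 11.7 CPM in the Ccl3/Ccl4 cells of the WT and IFT20-KO library, against 8.83 and 10.3 CPM in chemokine-negative cells, and *Cd8a*, the other chain, had 0 and 3 UMIs. NK cell markers were at 1.59 and 2.20 CPM, lower than the 6.07 and 3.73 CPM of chemokine-negative cells, and *Ncr1*, the receptor NKp46, was at 0. The γδ T cell markers were at 0.655 and 1.67 CPM, and *Klrb1c*, the NK1.1 antigen of NKT cells, was at 0 in both libraries, with *Slamf7* and *Cd160* giving most of the 70.5 and 55.8 CPM of the innate-like T cell list, against 48.5 and 42.8 CPM. Of the 12 monocyte and macrophage markers 8 were at 0, including *Lyz2* and *Csf1r*, and the list summed to 4.58 and 3.45 CPM against 3.45 and 4.13. Dendritic cell markers summed to 58.6 and 44.8 CPM against 41.8 and 39.7, with 56.7 and 43.1 CPM of *Cd74*, while *Flt3*, *Itgax* and *Clec9a* were at 0. The B cell list was at 0.374 and 1.25 CPM, and neutrophil, mast cell and erythroid markers were at 0. Regulatory T cell markers were at 377 and 407 CPM against 356 and 376, led by *Il2ra*, but *Foxp3* itself was at 1.12 and 3.14 CPM against 3.40 and 4.23. The part of the innate-like, dendritic and regulatory T cell lists in the results was not tested. A UMI of *Cd8a*, *Cd8b1*, *Ncr1*, *Trdc*, *Foxp3*, *Cd79a*, *Ms4a1*, *Lyz2*, *Csf1r*, *S100a8* or *S100a9* was found in 92 of the 593 and 103 of the 611 Ccl3/Ccl4 cells and in 702 and 698 chemokine-negative cells. Without all of these cells, 139 of 139 named genes kept their direction in the WT library and 138 in the IFT20-KO library, where *Cblb* had an interval that included 0.

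The Ccl3/Ccl4 cells did not share 1 TCR β variable segment. Among the 174 WT and 89 IFT20-KO cells with UMIs of exactly 1 *Trbv* gene, 19 and 18 segments were found, and *Trbv3*, the most frequent, was in 15.5% and 13.5%. In the chemokine-negative cells of the WT library *Trbv3* was in 14.0%.

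Most genes differed little between Ccl3/Ccl4 cells and chemokine-negative cells. UMIs were summed over the cells of each group and given as CPM, and genes with at least 10 CPM in either group, other than *Ccl3* and *Ccl4*, were compared. In the WT library, 45 of 6739 genes (0.668%) were at least 2-fold higher in Ccl3/Ccl4 cells and 35 (0.519%) at least 2-fold lower. In the IFT20-KO library, 29 of 6838 genes (0.424%) were at least 2-fold higher and 13 (0.19%) at least 2-fold lower. The median log2 ratio over all these genes was 0.05 and 0.04. Against chemokine-negative cells weighted to the same UMI deciles (the matched comparison), 36 genes were higher and 10 lower in the WT library, and 28 and 4 in the IFT20-KO library. Counted as UMIs per cell without scaling, the median log2 ratios were 0.38 and 0.43, 6126 of 6639 genes were higher in both libraries, and 116 genes were 2-fold higher and 8 lower in the WT library, and 107 and 3 in the IFT20-KO library, so levels below are shares of a cell's transcripts and not amounts per cell. Among the 6639 genes compared in both libraries, 24 were at least 2-fold higher in both, which is 57.1% of the WT genes and 82.8% of the IFT20-KO genes, and all others had the same direction in the other library. For the lower genes, 10 were shared, 30.3% and 100% of the lists. Over 2796 genes of 50 CPM or more, the log2 ratios of the libraries had a Pearson r of 0.94 and a Spearman rho of 0.902, a description across genes that share the same rule and the same depth difference in both libraries.

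**Figure D2:**
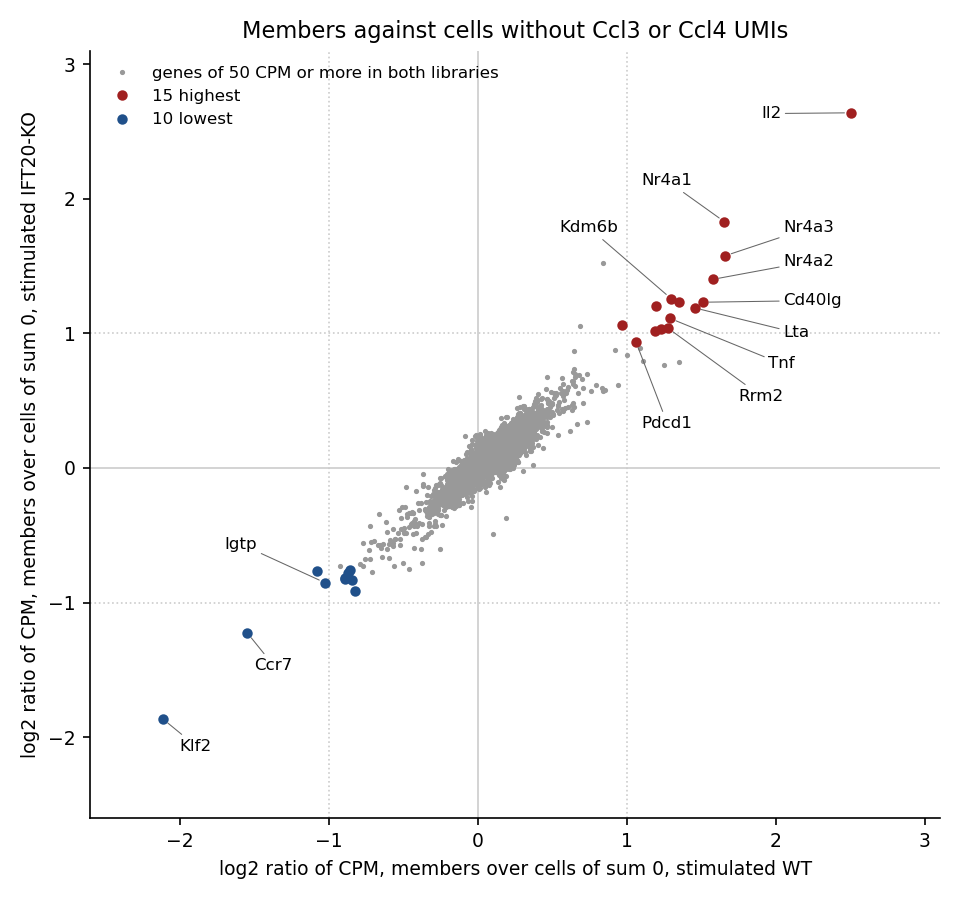
Log2 ratio of CPM in Ccl3/Ccl4 cells (members) over chemokine-negative cells (cells of sum 0) in stimulated WT (x axis) and stimulated IFT20-KO (y axis), 1 point per gene of 50 CPM or more, with the 15 highest and 10 lowest genes of the naming rule in color and dotted lines at 2-fold. *Il2* stands apart at 2.50 and 2.64, *Klf2* at -2.11 and -1.87, and most genes lie near 0 in both.

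*Il2*, which encodes the main T cell growth factor, had the highest log2 ratio of the genes of 50 CPM or more in the naming rule. It was at 439 CPM in Ccl3/Ccl4 cells and 77.5 CPM in chemokine-negative cells of the WT library, and at 245 and 39.3 CPM in those with IFT20-KO. The log2 ratios were 2.50 (2.45 to 2.56) and 2.64 (2.56 to 2.72). Ccl3/Ccl4 cells of both libraries were thus above the chemokine-negative cells of both. One WT cell held 13.7% of the *Il2* UMIs of the Ccl3/Ccl4 cells, and without it the WT log2 ratio was 2.29. In the matched comparison the log2 ratios were 2.18 and 2.28.

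Several TNF superfamily genes were higher in Ccl3/Ccl4 cells of both libraries. *Tnf*, the inflammatory cytokine, was at 185 against 75.6 CPM in the WT library and 138 against 63.7 CPM in the IFT20-KO library, log2 ratios of 1.29 and 1.11. *Lta*, which encodes lymphotoxin α, had 371 against 135 CPM and 214 against 93.8 CPM, log2 ratios of 1.45 and 1.19. *Cd40lg*, the ligand through which CD4+ T cells help B cells and dendritic cells, had 328 against 115 CPM and 205 against 87.2 CPM. Of the 11 listed ligands that, like *Cd40lg*, are mostly membrane-bound, 5 passed the 10 CPM minimum. *Tnfsf14* and *Fasl* passed it only through the Ccl3/Ccl4 cells, so their direction was set by the minimum and no count over the list is read. The other 3 were higher in both libraries. *Tnfsf14* (LIGHT) was low in level but had log2 ratios of 2.47 and 1.58, *Fasl*, the death ligand, 1.27 and 0.95, *Tnfsf11* (RANKL) 1.30 and 0.86, and *Tnfsf8* (CD30 ligand) 0.41 and 0.31. *Ltb*, the partner of *Lta* in the membrane-bound heterotrimer, was at -0.03 and -0.16, and as UMIs per cell at 0.30 and 0.23.

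Transcription factors that TCR signaling induces were the next group. The orphan nuclear receptor *Nr4a1* (Nur77), an immediate-early gene often used as a reporter of TCR signal strength, was at 397 against 126 CPM in the WT library and 299.7 against 84.3 CPM in the IFT20-KO library, log2 ratios of 1.65 and 1.83. Its relatives *Nr4a3* and *Nr4a2* had log2 ratios of 1.66 and 1.58, and of 1.57 and 1.40. *Atf3*, a stress-induced bZIP factor, was at 1.54 and 1.85. Of the 23 genes compared in this list, 21 were higher in both libraries and 2 lower in both, against 49.5% higher and 32.1% lower among all genes compared in both. The medians were 0.64 and 0.74. The count includes *Atf3* and *Fosl2*. *Atf3* passed the 10 CPM minimum only through the Ccl3/Ccl4 cells in the IFT20-KO library, and *Fosl2* did so in both libraries. The count also includes *Jun*, which passed only through chemokine-negative cells. Their directions there were set by the minimum. The 2 lower genes, *Jun* and *Batf*, had log2 ratios of -0.71 and -0.38 and of -0.11 and -0.03. As UMIs per cell 22 genes of the list were higher in both libraries and 0 lower. On that scale 6126 of all 6639 genes were higher and 245 lower. *Jun* was then at -0.38 in the WT library and 0.0054 in the IFT20-KO library. *Irf8* was higher in both libraries but unevenly, at 0.84 and 1.52.

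Genes that restrain signaling went both ways, with several higher in the same cells. *Pdcd1*, which encodes the inhibitory receptor PD-1, was at 288 against 138 CPM and 291 against 152 CPM, log2 ratios of 1.06 and 0.94, and *Cd200* and *Cd274* (PD-L1) were between 0.65 and 0.69. *Ctla4* went the other way, with -0.92 and -0.49. Of the 10 inhibitory receptors and ligands compared, 8 were higher and 2 lower in both libraries. Among all genes compared in both, 49.5% were higher and 32.1% lower. As UMIs per cell 8 of the list were higher and 1 lower, where 6126 of all 6639 genes were higher and 245 lower. *Rgs16* and *Rgs1*, regulators that shorten G protein signaling from chemokine receptors, had log2 ratios of 1.35 and 1.23 and of 0.65 and 0.87, and *Dusp4*, a MAP kinase phosphatase, 1.08 and 0.76. In this feedback list, 9 of 12 genes were higher in both libraries and 3 lower, against the same 49.5% and 32.1%, with medians of 0.60 and 0.66. As UMIs per cell 11 were higher, where 6126 of all 6639 genes were. The count includes *Dusp4* and *Rgs2*, which passed the 10 CPM minimum in the WT library only through the Ccl3/Ccl4 cells. It also includes *Dusp10*, which passed it in the IFT20-KO library only through chemokine-negative cells. Their directions there were set by the minimum.

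The other genes of the 15 highest had mixed roles. *Kdm6b*, a histone H3K27 demethylase, had log2 ratios of 1.30 and 1.26, the kinase *Plk3* 1.20 in both, *Gch1*, the first enzyme of tetrahydrobiopterin synthesis, 1.23 and 1.03, *Phlda1* 1.19 and 1.02, and the transcription factor *Bhlhe40* 0.97 and 1.06. *Rrm2*, a subunit of ribonucleotide reductase, was at 67.2 against 27.7 CPM and 74.1 against 36.1 CPM. Among cells with few cell cycle transcripts, which are chosen to be low in genes of this kind, its log2 ratios were 0.09 and 0.12. Amino acid transport and stress genes were higher in both libraries in 15 of 17 cases, against 49.5% of all genes, with medians of 0.37 and 0.38. They were led by *Chac1* at 0.95 and 1.22 and the mitochondrial folate enzyme *Mthfd2* at 0.59 and 0.56. *Ddit3* (CHOP) was at -0.50 and -0.54, but it passed the 10 CPM minimum only through chemokine-negative cells, so its direction was set by the minimum.

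Other chemokine genes had few UMIs in these cells. Of 26 further chemokine genes in the files, 9 had a UMI in the WT Ccl3/Ccl4 cells and 7 in those of the IFT20-KO library, with 490 and 409 UMIs in all. *Ccl25* was found in the most cells, 87 (14.7%) and 98 (16.0%), against 11.5% and 11.7% of chemokine-negative cells. *Xcl1* (lymphotactin, which attracts cross-presenting dendritic cells) was at 22.0 CPM in the WT Ccl3/Ccl4 cells and 5.00 CPM in WT chemokine-negative cells. However, 179 of its 235 UMIs (76.2%) came from the second cell described above. Its WT log2 ratio was 2.14 with that cell and 0.07 without it. In the WT library *Xcl1* passed the 10 CPM minimum only through the Ccl3/Ccl4 cells, so its direction there was set by the minimum. In the IFT20-KO library the 225 *Xcl1* UMIs were spread over 58 cells (9.49%), and the log2 ratio was 1.23, or 1.04 without the cell that held most. *Ccl1*, which binds CCR8, had 61 UMIs in 8 of the WT Ccl3/Ccl4 cells (1.35%), 29 of them in 1 cell, and 1048 UMIs in 31 chemokine-negative cells (0.527%), so its share of cells was higher and its CPM lower, and no direction was read from it. *Ccl5* had 56 UMIs in 35 WT cells (5.90%) and 44 UMIs in 16 IFT20-KO cells.

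Chemokine receptor genes had log2 ratios on both sides of 0. *Ccr8* had 1.65 and 1.52 (118 UMIs in 67 Ccl3/Ccl4 cells and 107 UMIs in 55), *Ccr4* had -0.87 and -0.48, and *Ccr7* was among the lowest of all genes. In both libraries *Ccr8* passed the 10 CPM minimum only through the Ccl3/Ccl4 cells, and *Ccr4* only through chemokine-negative cells. The directions of *Ccr8* and *Ccr4* were therefore set by the minimum.

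Effector cytokines other than those above were rare. *Ifng* had 211 UMIs in 6 WT Ccl3/Ccl4 cells (1.01%), of which 170 (80.6%) lay in 1 cell, so its log2 ratio was 5.66 with that cell and 3.30 without it. In the IFT20-KO library it had 4 UMIs in 2 cells. *Csf2*, which encodes GM-CSF, had 32 UMIs in 16 WT cells and 48 UMIs in 21 IFT20-KO cells, 23 of them in 1 cell, and *Il3* had 4 UMIs in 1 WT cell. *Nkg7*, a granule membrane protein of cytotoxic cells, was found in 25 and 27 cells. Its log2 ratios were 2.57 and 1.63, or 2.21 and 1.46 without the cell that held most. In the WT library *Nkg7* and *Ifng* passed the 10 CPM minimum only through the Ccl3/Ccl4 cells. Their directions there were set by the minimum, and in the IFT20-KO library neither gene reached it. *Gzmb*, the serine protease of cytotoxic granules, had 18 and 34 UMIs. *Nkg7*, *Ccl1*, *Ccl5*, *Ccl9*, *Ccl25*, *Cd69*, *Csf2*, *Gzmb*, *Ifng*, *Il3* and *Tbx21* fall outside the naming rule and were picked for the text with their values known.

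Genes of naïve and resting T cells were lower in Ccl3/Ccl4 cells. *Klf2*, the transcription factor that keeps T cells quiescent and circulating, was at 29.1 against 126 CPM in the WT library and 29.6 against 108 CPM in the IFT20-KO library, log2 ratios of -2.11 and -1.87. *Ccr7*, the lymph node homing receptor, was at 184 against 537 CPM and 268 against 627 CPM, log2 ratios of -1.55 and -1.23. The lower level of both genes held in each library, and *Klf2* in Ccl3/Ccl4 cells was nearly the same in both. Of the 18 genes of the naïve list, 15 were lower in both libraries and 1 higher, against 32.1% and 49.5% of all genes. The medians were -0.33 and -0.39, or -0.24 and -0.16 in the matched comparison. As UMIs per cell 8 were lower and 8 higher in both, where 245 of all 6639 genes were lower and 6126 higher. *Klf2* and *Ccr7* were at -1.61 and -1.47 and at -1.44 and -1.12 in the matched comparison, and at -1.78 and -1.48 and at -1.22 and -0.84 as UMIs per cell.

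Most genes of the interferon-stimulated list were lower as well. *Igtp*, an immunity-related GTPase, was at 74.4 against 152 CPM and 44.6 against 80.6 CPM, log2 ratios of -1.03 and -0.85, and *Irf1*, the interferon regulatory factor, at 63.2 against 117 CPM and 35.9 against 63.6 CPM. *Gbp5*, a guanylate-binding protein, had log2 ratios of -1.21 and -0.96. Of the 16 genes of this list compared in both libraries 13 were lower and 3 higher, against 32.1% lower and 49.5% higher among all genes. The medians were -0.37 and -0.59, or -0.64 over the 20 genes compared in the WT library. In the matched comparison they were -0.40 over those 20 genes and -0.36 in the IFT20-KO library, with *Igtp* at -0.76 and -0.67 and *Gbp5* at -0.97 and -0.78. As UMIs per cell 9 were lower and 5 higher, where 245 of all 6639 genes were lower and 6126 higher. *Ifih1*, which encodes the RNA sensor MDA5, was the one gene of the list past 2-fold higher, at 1.02 in the WT library. It was at 0.59 in the IFT20-KO library, and there at -0.056 among cells with few cell cycle transcripts. At 9.68 and 8.69 CPM in chemokine-negative cells, *Ifih1* passed the 10 CPM minimum only through the Ccl3/Ccl4 cells, so its direction was set by the minimum. Outside the list, and picked with their values known, the interferon-induced genes *Ifitm3* and *Plscr1* were higher, at 2.41 and 1.73 and at 1.37 and 1.25. *Ifitm3* passed the minimum only through the Ccl3/Ccl4 cells, so its direction was set by the minimum.

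The remaining genes of the 10 lowest were *Ypel3*, *Slfn1*, *Samhd1*, *Arhgap45*, *Il16* and *Pitpnc1*, with log2 ratios between -1.08 and -0.76 in both libraries. *Samhd1* encodes a dNTP hydrolase that restricts retroviruses, and *Il16* the precursor of a chemoattractant that binds CD4. Of the 12 genes compared in the IL-2 receptor and STAT5 list, 9 were lower and 2 higher in both libraries, against 32.1% and 49.5% of all genes, with medians of -0.15 and -0.10. As UMIs per cell 9 were higher and 2 lower, where 6126 of all 6639 genes were higher and 245 lower. The list held *Socs2*, a feedback inhibitor, at -1.44 and -0.95. *Socs2* passed the 10 CPM minimum only through chemokine-negative cells in both libraries, so its direction was set by the minimum. From the helper lineage and memory lists, *Id2*, a helix-loop-helix inhibitor linked to effector cells, was at -1.16 and -0.88.

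Several pathway lists had medians near that of all genes, with members on both sides of 0. The medians of the proximal TCR signaling list were 0.09 and 0.02, of the NFAT and calcineurin list -0.01 and 0.01, of the NF-κB list 0.08 and 0.05 and of the glycolysis list -0.04 and -0.00, close to the 0.05 and 0.04 of all genes. None of the genes compared in the TCR signaling, NFAT and glycolysis lists was past 2-fold. Among all genes, 0.668% were 2-fold higher and 0.519% lower in the WT library, and 0.424% and 0.19% in the IFT20-KO library. The lack of such genes in these short lists is therefore not read. Of the 20 TCR signaling genes, 11 were higher and 7 lower in both libraries, with the adaptor *Grap2* at -0.99 and -0.57, and of the 18 glycolysis genes 8 were higher and 9 lower, against 49.5% higher and 32.1% lower among all genes compared in both. Within the NF-κB list, *Nfkbid* had log2 ratios of 0.86 and 0.78 and *Bcl3* -1.36 and -0.99. *Il2ra*, the α chain of the IL-2 receptor (CD25), was at 194 against 173 CPM and 204 against 166 CPM, and *Cd69*, the early activation marker, at 328 against 265 CPM and 279 against 203 CPM, log2 ratios of 0.31 and 0.46. Of 36 S phase genes 33 were higher in both libraries, against 49.5% of all genes. Their medians were 0.27 and 0.15, or 0.10 and 0.01 in the matched comparison. The S phase count includes *Blm*, which passed the 10 CPM minimum in the WT library only through the Ccl3/Ccl4 cells. *Hk2* of the glycolysis count did so in the IFT20-KO library. The directions of *Blm* and *Hk2* there were set by the minimum. The G2/M list had medians of 0.18 and 0.14, and -0.08 and -0.13 among cells with few cell cycle transcripts, which are chosen on such genes.

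**Figure D3:**
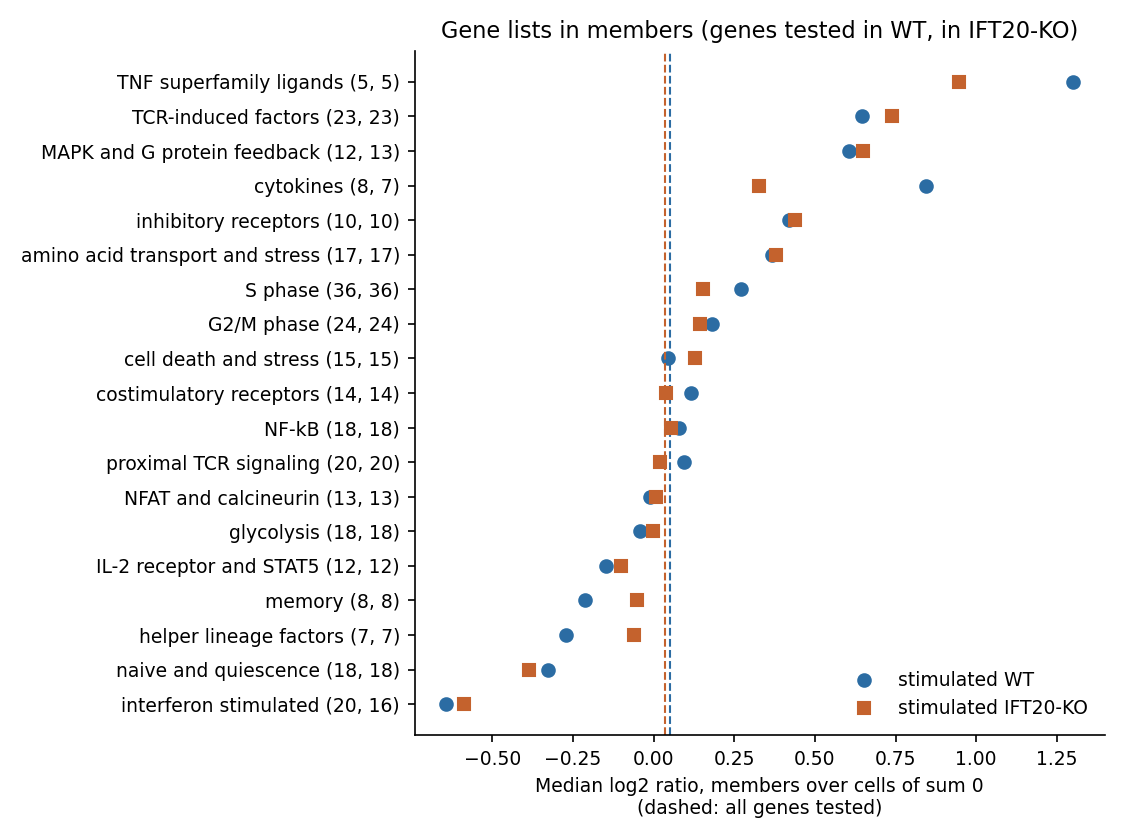
Median log2 ratio of CPM, Ccl3/Ccl4 cells (members) over chemokine-negative cells (cells of sum 0), for each gene list with at least 5 genes compared (x axis, lists on the y axis with the number of genes compared in WT and in IFT20-KO), with dashed lines at the medians of all genes. The ligand list is plotted at 1.30 and 0.95, but 2 of its genes passed the minimum only through Ccl3/Ccl4 cells, so its rank is not read. The interferon list has the lowest values at -0.64 and -0.59.

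The levels of *Il2*, *Nr4a1* and *Klf2* differed between cells with lower and higher chemokine sums. Over sums of 0, 1 to 4, 5 to 19 and 20 or more, *Il2* was at 77.5, 117, 212 and 692 CPM in the WT library and at 39.3, 67.7, 182 and 336 CPM in the IFT20-KO library. *Nr4a1* was at 126, 185, 320.0 and 483 CPM, and at 84.3, 132, 242 and 383 CPM. *Klf2* was lower at each step in the IFT20-KO library, with 108, 73.1, 33.1 and 24.4 CPM, whereas in the WT library it was at 126, 82.6, 23.6 and 35.2 CPM. These genes were named for their values in cells of 5 or more UMIs over cells of 0, so the direction between those steps is set by that choice. Median depth rises with the sum as well, and its part in these steps was not tested.

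**Figure D4:**
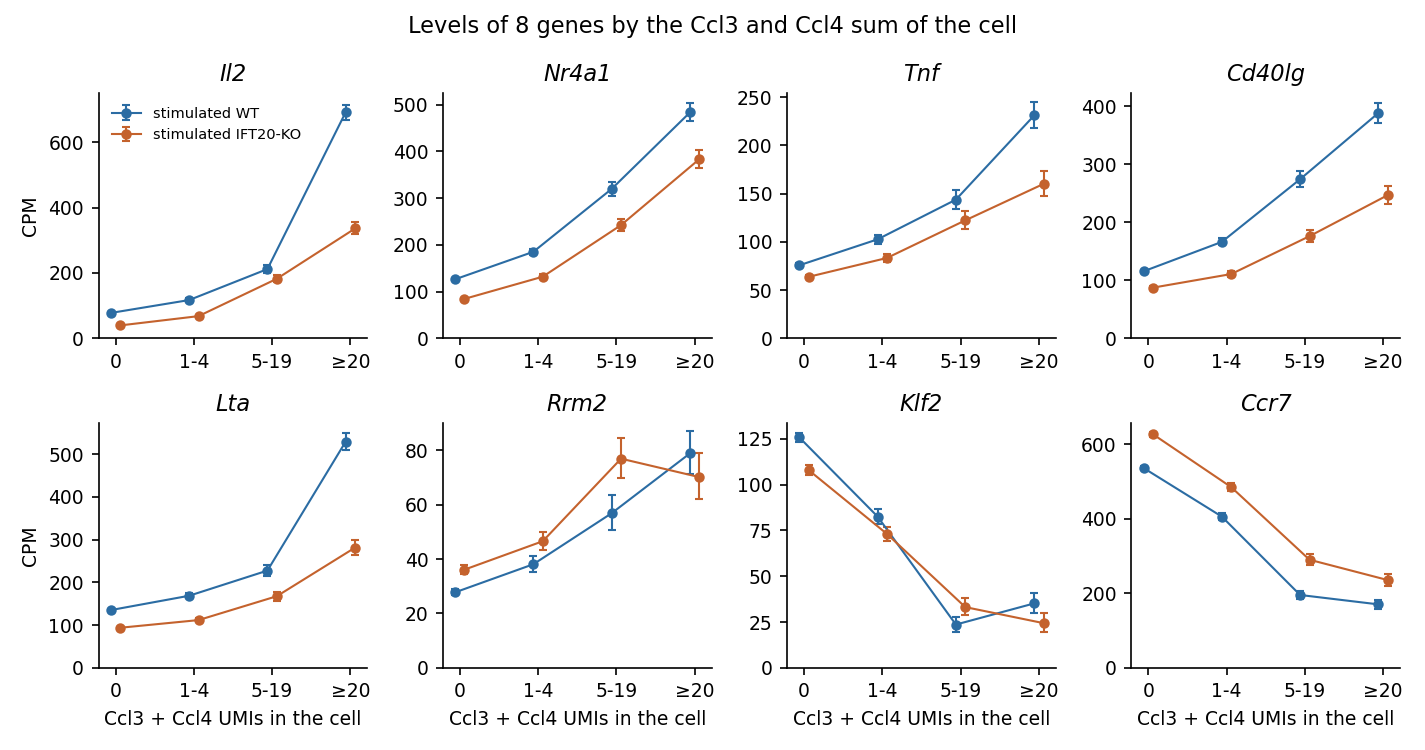
CPM (y axis, from 0) of 8 genes in cells with a Ccl3 and Ccl4 sum of 0, 1 to 4, 5 to 19 and 20 or more (x axis) in both stimulated libraries, with bars for 95% exact Poisson intervals. *Il2* in stimulated WT goes from 77.5 to 692 CPM, and *Ccr7* goes down from 537 to 170.5 CPM.

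Counted cell by cell at equal depth, 2 or more UMIs of these transcripts were found in only a part of the Ccl3/Ccl4 cells. Before thinning, a UMI of *Cd40lg* was found in 88.5% of the WT and 82.3% of the IFT20-KO Ccl3/Ccl4 cells. In chemokine-negative cells it was found in 51.8% and 47.6%. With every cell thinned to 4056 UMIs, 19.4% of the WT Ccl3/Ccl4 cells (16.3 to 22.8) and 14.4% of the IFT20-KO ones (11.7 to 17.4) had 2 or more *Il2* UMIs, against 4.44% and 2.76% of chemokine-negative cells. For *Nr4a1* these shares were 34.9% and 27.8% against 10.2% and 6.57%, and for *Cd40lg* 34.9% and 20.8% against 10.9% and 6.64%. Among cells with a sum of 20 or more, 27.6% and 18.99% passed for *Il2*. Looked at from the other side, Ccl3/Ccl4 cells were 25.2% and 29.5% of all cells with at least 2 thinned *Il2* UMIs, so most such cells were not Ccl3/Ccl4 cells. A single thinned cell holds few UMIs, and a cell under 2 is not shown to lack the transcript.

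**Figure D5:**
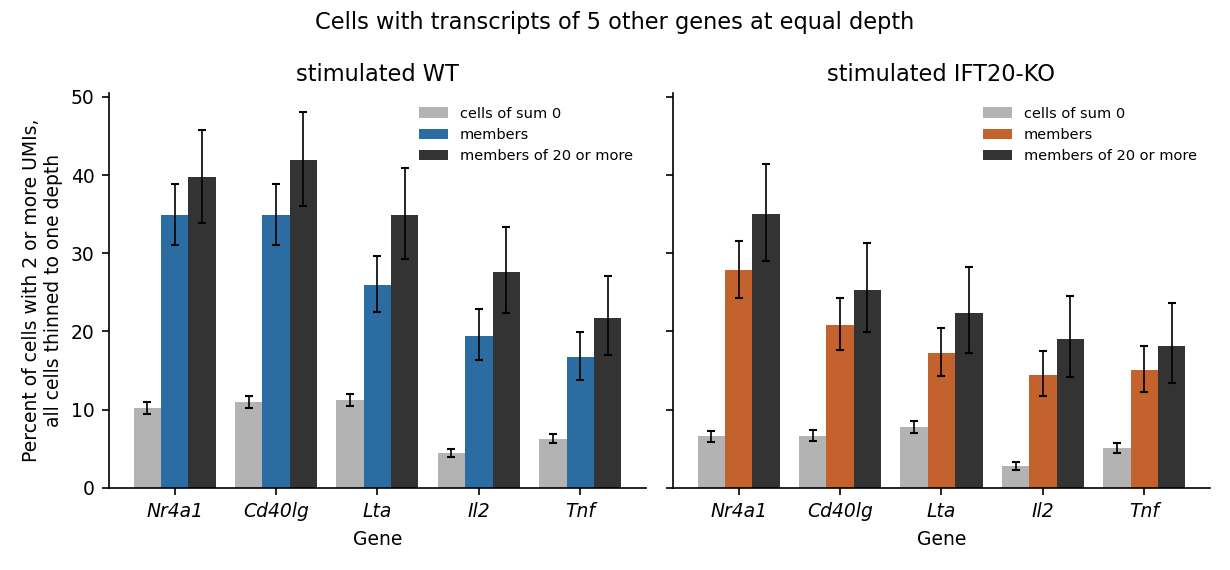
Percent of cells with at least 2 UMIs of each of 5 genes (y axis) after thinning each cell to the same UMI number, for chemokine-negative cells (cells of sum 0), Ccl3/Ccl4 cells (members) and those with a sum of 20 or more, with 95% Clopper-Pearson intervals as bars. For *Nr4a1* the WT shares are 10.2%, 34.9% and 39.7%, and the order is the same for the other 4 genes in both libraries.

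Ccl3/Ccl4 cells of the 2 genotypes were compared directly, which compares 1 library with 1 library. Of 6748 genes, 6 (0.0889%) were at least 2-fold higher in IFT20-KO and 18 (0.267%) at least 2-fold lower, and the median log2 ratio was 0.00. Of these, 2 of the 6 and 8 of the 18 were also past 2-fold in chemokine-negative cells of the same libraries. Besides *Ift20*, the genes lower in both kinds of cell included *Ly6a* (Sca-1), at log2 ratios of -3.00 in Ccl3/Ccl4 cells and -2.84 in chemokine-negative cells, *Tbx21*, which encodes the Th1 factor T-bet, at -3.13 and -3.37, and the interferon-induced GTPase *Gbp2*, at -1.32 and -1.26. *Il2* had -0.84 and -0.98, *Lta* -0.79 and -0.53 and *Cd40lg* -0.68 and -0.40. *Tnf* had -0.43 and -0.25, *Pdcd1* 0.02 and 0.14 and *Ccr7* 0.55 and 0.23. The size of the -5.56 of *Ifng* in Ccl3/Ccl4 cells depends on the WT cell that held 170 of its 211 UMIs. Without that cell *Ifng* was at 3.84 CPM in the WT Ccl3/Ccl4 cells, against 0.418 CPM, from 4 UMIs, in those of the IFT20-KO library.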

How the data were processed

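UMI counts were analysed for 3 libraries, unstimulated and stimulated WT and stimulated IFT20-KO CD4+ T cells, 1 of each. The authors aligned reads to mm10 and called barcodes with Cell Ranger (3.1.0 per the file headers), and the deposited values are raw counts of UMIs per gene and barcode, without normalization. The kit is a 3′ one in the methods and a 5′ one in the labels, so which transcript end was read is not settled. The study's own filter was more than 200 genes and under 15% mitochondrial genes.

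From these counts, barcodes were filtered and Ccl3/Ccl4 cells chosen as described above. The members and all gene lists (22 pathway and 14 marker lists) were chosen with earlier results of these data known. The kept cells held 29876738, 112586119 and 89877195 UMIs. Intervals at 95% are exact Poisson for CPM, exact binomial for ratios and Clopper-Pearson for shares, and a gene at 0 was set to 3 counts in a ratio. Genes were compared from 10 CPM and called at 2-fold. Each cell was thinned once to 4056 UMIs, and matched comparisons weighted chemokine-negative cells over 10 UMI deciles. No doublet caller was run.

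Named genes were the 15 highest and 10 lowest by the smaller absolute log2 ratio of both libraries, among genes of 50 CPM or more with 1 direction and intervals without 0, up to 4 highest and 2 lowest genes of each list, marker genes, and the 5 highest and 5 lowest of IFT20-KO over WT, and not all are reported here. Further genes, said in the text to fall outside this rule, were added with their values known. The alternatives were other minimums of UMIs, depth matching and thinning, other scalings, stricter filters, cells with few cell cycle transcripts and, chosen after seeing the data, leaving out the cell with the highest sum or with the most UMIs of a gene. Calculations, tested on simulated data, used Python 3.11.15, numpy 2.4.6, scipy 1.17.1, pandas 2.3.3 and matplotlib 3.10.9.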

Additional observations from a re-analysis of the deposited data

Results flagged for a closer look

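Barcodes outside the filter also held *Ccl3* and *Ccl4*. Among barcodes under the UMI minimum, with mitochondrial genes under 15%, 36 of 2301 in the stimulated WT library (1.56%) and 47 of 6676 in the stimulated IFT20-KO library (0.704%) had a sum of 5 or more, against 0 of 2768 in the unstimulated library. These barcodes were used in no comparison above, and a signal above the unstimulated level in such unused data is what singled them out.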

How the results depend on the processing

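In each stimulated library, 139 named genes were recomputed under every alternative that applied to them. No p-value or call by a test is involved, since each group is 1 library. No paired analysis was possible because each group has 1 library. Depth limits the shares, as a raw UMI minimum is easier to reach in deeper cells. The cause of the changes below was not tested.

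The share of Ccl3/Ccl4 cells (WT, then IFT20-KO) was 9.60% and 10.8% from 3 UMIs, 5.51% and 5.63% from 10 UMIs, 3.63% and 4.0% at equal depth, 6.35% and 4.73% with no UMI minimum, 2.09% and 1.70% with *Ccl3* alone, and 7.04% and 7.37% without the 6% of cells with the most UMIs.

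In the WT library, the 45 higher and 35 lower genes became 70 and 94 in thinned cells, 116 and 8 as UMIs per cell without scaling, 18 and 4 from 50 CPM, and 392 and 446 with no minimum but 10 UMIs. The lower genes were 10 against matched cells, 66 by the mean of per-cell fractions and 57 with cells chosen on thinned counts. In the IFT20-KO library, the 29 higher and 13 lower genes became 45 and 55 in thinned cells, 107 and 3 unscaled, 16 and 2 from 50 CPM, and 254 and 443 with no minimum. The lower genes were 4 against matched cells, 32 by per-cell fractions, 25 for cells from 10 UMIs, 24 for cells chosen on thinned counts and 22 without the 6% of cells with the most UMIs. For IFT20-KO over WT, the 6 higher and 18 lower genes became 3 and 34 unscaled, 55 and 39 in thinned cells, 24 and 35 for cells chosen on thinned counts, 0 and 3 from 50 CPM, and 236 and 192 with no minimum, and the higher genes were 11 for cells from 10 UMIs.

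Among log2 ratios whose interval left out 0, direction turned in cells with few cell cycle transcripts for *Birc5* (-0.21 in WT and -0.36 in IFT20-KO), *Blm* (-0.31), *Ccne1* (-0.25) and *Top2a* (-0.19) in WT, and *Cdk1* (-0.48), *Ifih1* (-0.056), *Mki67* (-0.35) and *Nfatc1* (-0.023) in IFT20-KO. Those cells are chosen on cell cycle genes, so no conclusion is drawn for genes of that kind. *Ly6a* in WT was at 0.039 against matched cells, *Ptpn22* in IFT20-KO at -0.024 in thinned cells and *Vim* in WT at 0.17 for cells chosen on thinned counts. As UMIs per cell, where all genes shift by 0.33 in WT and 0.39 in IFT20-KO, these turned in both libraries: *Cd3g* (0.0028 and 0.026), *Mbnl1* (0.058 and 0.079), *Nfatc3* (0.0015 and 0.070), *Pdk1* (0.063 and 0.085), *Rgs10* (0.081 and 0.037), *Smc4* (0.12 and 0.10) and *Tpi1* (0.19 and 0.25). In WT alone these were *Il2rg* (0.27), *Ly6a* (0.067), *Stat4* (0.059) and *Vim* (0.10), and in IFT20-KO alone *Icos* (0.046), *Jun* (0.0054), *Ltb* (0.23), *Mcm6* (0.33), *Rcan3* (0.075), *S100a10* (0.057) and *Zbtb7b* (0.082). Without the cell that held most UMIs of the gene, 136 of 139 genes in WT and 139 in IFT20-KO stayed within their counting interval, and no ratio whose interval left out 0 turned.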

Other observations

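Genes under 50 CPM were left out of the highest and lowest genes above, and several of them were past 2-fold in both stimulated libraries. The genes given here were chosen after their values were seen. *Plk2*, a polo-like kinase, was at 49.9 against 11.2 CPM in Ccl3/Ccl4 and chemokine-negative cells of the WT library, and at 46.0 against 14.4 CPM with IFT20-KO, log2 ratios of 2.15 and 1.68. *Sema7a*, a membrane-anchored semaphorin, had log2 ratios of 2.08 and 1.76, and *Fosl2*, an AP-1 subunit, 1.15 and 1.36. *Ifitm3*, an interferon-induced membrane protein, was higher at 2.41 and 1.73, whereas the interferon-inducible genes *Ifi214* and *Ifi209* were at -1.66 and -1.47 and at -1.09 and -1.20. *Mxd4*, a MAX partner that opposes MYC, was at -1.15 and -1.21, and *Sesn1*, a sestrin that restrains mTORC1, at -1.09 and -1.18. In the matched comparison *Plk2*, *Sema7a*, *Fosl2*, *Ifitm3* and *Ifi214* stayed past 2-fold in both libraries, and *Mxd4*, *Sesn1* and *Ifi209* did not, with *Ifi209* at -0.92 and -1.06. *Sema7a*, *Fosl2* and *Ifitm3* passed the 10 CPM minimum only through the Ccl3/Ccl4 cells in both libraries. *Ifi214* and *Sesn1* passed it only through chemokine-negative cells in both, and *Mxd4* in the WT library. Their directions there were set by the minimum, and those of *Plk2* and *Ifi209* were not.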
